A study of Mus musculus with 8 samples.

Results

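Fshr, the gene of the follicle-stimulating hormone (FSH) receptor, was described here in mouse full-grown oocytes beside 9 other genes that mark granulosa cells, the somatic cells that surround the oocyte in the follicle. The 10 genes (Fshr, Lhcgr, Esr2, Cyp19a1, Inha, Inhba, Amh, Foxl2, Star and Cyp11a1) were taken by symbol from the 35976 symbols of the deposited count table, and all 10 were present in it. Fshr was picked because its counts were higher in both mutants, as labelled, than in their controls, so its levels in those comparisons are a description and carry no test. The other 9 were added by function, as a look at somatic RNA. After a filter on low counts, 7 of the 10 could be tested (Lhcgr, Amh and Foxl2 could not), against 16847 of all symbols. The study sequenced polyadenylated RNA of oocytes from mice labelled as double knockouts of H2A.Z.1 and H2A.Z.2 (H2A.Z DKO) with their wild-type controls (H2A.Z control), and of Mll2 knockout oocytes (Mll2 KO) with wild-type oocytes of that line (Mll2 WT). H2A.Z is a histone variant found at promoters, and Mll2 (gene Kmt2b) is a methyltransferase that places H3K4me3, a histone mark of promoters. The stated aim was to compare the 2 mutants. Each of the 4 groups had 2 libraries, and each library pooled about 20 oocytes whose zona had been removed before washing, so cells of several follicles share a library. The labels state no Cre driver or allele, no strain and no age for the mice.

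FSH acts on granulosa cells through its receptor, which couples to the stimulatory G protein and raises cyclic AMP. In those cells the signal is known to induce Cyp19a1 (aromatase, which makes oestrogen), the luteinizing hormone receptor Lhcgr and the inhibin subunits, while Foxl2 and Esr2 are transcription factors of granulosa identity and Amh is a hormone of growing follicles. The full-grown oocyte is held in meiotic arrest by cyclic AMP of its own, made downstream of the receptor Gpr3, and it is joined to granulosa cells by gap junctions. Granulosa genes in an oocyte library can be read from the oocyte itself or from somatic cells or fragments that stayed attached, and in a bulk library fewer cells of a type and less RNA per cell cannot be told apart.

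Totals ran from 20309233 to 30087863 counts per library. Levels are given in CPM, counts set against a library total that was scaled by TMM normalisation. All 16 markers of the oocyte (such as Gdf9, Zp3 and Ddx4) were detected in every library. Their summed level was 25754 and 28017 CPM in the libraries labelled H2A.Z DKO, 26442 and 25410 CPM in H2A.Z control, 21279 and 19864 CPM in Mll2 KO and 20514 and 25554 CPM in Mll2 WT. Kmt2b fell in Mll2 KO (8.73 and 9.28 CPM) against Mll2 WT (41.9 and 42.4 CPM). The H2A.Z genes went against their label: H2afz, which encodes H2A.Z.1, stood at 322 and 317 CPM in the libraries labelled H2A.Z DKO, against 23.9 and 29.97 CPM in H2A.Z control, and H2afv, which encodes H2A.Z.2, at 285 and 294 CPM against 108 and 107 CPM. Every direction for the H2A.Z line below is that of libraries as labelled. Were those labels turned round, each of these directions would reverse, that of Fshr included. In Mll2 WT, the other wild type, H2afz stood at 7.04 and 7.09 CPM and H2afv at 86.8 and 88.2 CPM. Both genes were thus nearer there to H2A.Z control than to the libraries labelled H2A.Z DKO. H2afz was still higher in H2A.Z control than in Mll2 WT (log2 1.93 ± 0.15, edgeR adjusted p = 2.69e-07). H2afz rose in Mll2 KO too (log2 1.28 ± 0.15, edgeR adjusted p = 1.21e-05), and H2afv did not pass there (0.165). A swap of labels was not tested. Nothing in the labels says which libraries came from separate mice, so adjusted p-values measure the spread between these pools, which may be technical.

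The start region of Fshr is shown first, with those of Lhcgr, its closest relative and neighbour on the chromosome, and of Esr2, which was abundant in all 4 groups, so that its sequence can be read beside those of a scarce and an abundant granulosa gene. These are the 250 bases before the transcription start site used in the RefSeq promoter table (GRCm38.p6, mm10), written 5′ to 3′ on the minus strand, on which all 3 genes lie. Fshr is chr17:89200676-89200925, Lhcgr is chr17:88792015-88792264 and Esr2 is chr12:76177260-76177509. RefSeq lists the gene Lhcgr up to position 88792059, so part of its stretch lies within the gene as listed. Capitals mark the E-box CACGTG, which upstream stimulatory factors bind at the rat Fshr gene in Sertoli cells, and AGGTCA, the core site of many nuclear receptors, each searched on both strands.
Fshr: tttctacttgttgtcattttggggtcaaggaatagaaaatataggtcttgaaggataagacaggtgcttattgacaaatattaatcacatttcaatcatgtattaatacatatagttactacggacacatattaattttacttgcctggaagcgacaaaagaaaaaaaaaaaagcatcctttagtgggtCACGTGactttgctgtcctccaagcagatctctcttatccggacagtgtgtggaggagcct
Lhcgr: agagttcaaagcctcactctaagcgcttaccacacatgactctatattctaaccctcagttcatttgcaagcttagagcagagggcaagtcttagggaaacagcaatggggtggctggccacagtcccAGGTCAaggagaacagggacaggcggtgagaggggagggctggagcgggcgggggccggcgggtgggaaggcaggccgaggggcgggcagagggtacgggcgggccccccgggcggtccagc
Esr2: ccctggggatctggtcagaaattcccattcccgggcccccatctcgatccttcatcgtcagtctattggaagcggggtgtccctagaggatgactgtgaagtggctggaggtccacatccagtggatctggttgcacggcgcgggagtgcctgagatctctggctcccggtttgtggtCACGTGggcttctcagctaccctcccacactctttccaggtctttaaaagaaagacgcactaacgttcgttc

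The table also holds the 50 bases after each start, and the counts that follow cover all 300. The first base of CACGTG lay at position -61 from the start site of Fshr and at -72 from that of Esr2, and Lhcgr had none. CACGTG was present in 7.15% of the 32851 windows in the table, the looser form CANNTG, which includes CACGTG, in 72.3% and AGGTCA in 16.3%. The window of Fshr held 6 CG dinucleotides, against a median of 7 over all windows, with 40.7% G or C, while those of Lhcgr and Esr2 held 14 each. Foxl2 had the most among the members, with 27. Windows were found for 8 of the 10 genes (Cyp19a1 has 3 and Cyp11a1 has 2), and Amh and Star had no entry. The windows of Inha and Inhba, and the further windows of Cyp19a1 and Cyp11a1, lie within those genes as RefSeq lists them. Across the other members with a window no further CACGTG was found, and AGGTCA was found in windows of Inha, Cyp19a1 and Cyp11a1. A match is a string of letters and does not show a bound factor.

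Fshr was low in both groups labelled as controls and higher in both groups labelled as mutants. It had 422 and 398 counts (18.7 and 18.9 CPM) in the libraries labelled H2A.Z DKO, against 25 and 15 counts (1.29 and 0.598 CPM) in H2A.Z control. In the Mll2 line it had 215 and 229 counts (7.25 and 7.70 CPM) in Mll2 KO, against 30 and 18 counts (0.992 and 0.594 CPM) in Mll2 WT. No control library reached the level of any mutant library, and the libraries labelled H2A.Z DKO stood above those of Mll2 KO. Group means were 18.8 ± 0.122 CPM in the libraries labelled H2A.Z DKO, 0.945 ± 0.491 CPM in H2A.Z control, 7.47 ± 0.316 CPM in Mll2 KO and 0.793 ± 0.281 CPM in Mll2 WT (SD, n = 2 each). The log2 fold change was 4.36 ± 0.30 (standard error, SE), or 20.5-fold, in the H2A.Z line as labelled. It was 3.23 ± 0.30, or 9.38-fold, in the Mll2 line. The difference between these changes was 1.13 ± 0.45. These values chose the gene and are not tested.

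With so few reads in the controls, the size of the change in the H2A.Z line rested on which control library was used. It was 3.86 on the log2 scale without H2A.Z control replicate 2 and 4.97 without H2A.Z control replicate 1, while in the Mll2 line it stayed between 2.89 and 3.64 over all alternatives. Fshr in H2A.Z control minus Mll2 WT was 0.20 ± 0.38 on the log2 scale, with overlapping libraries. Low control levels were part of the choice of the gene, so this too is a description. Median log2 differences over all genes tested were 0.12 in the H2A.Z line, 0.02 in the Mll2 line and 0.02 between the controls.

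**Figure D1:**
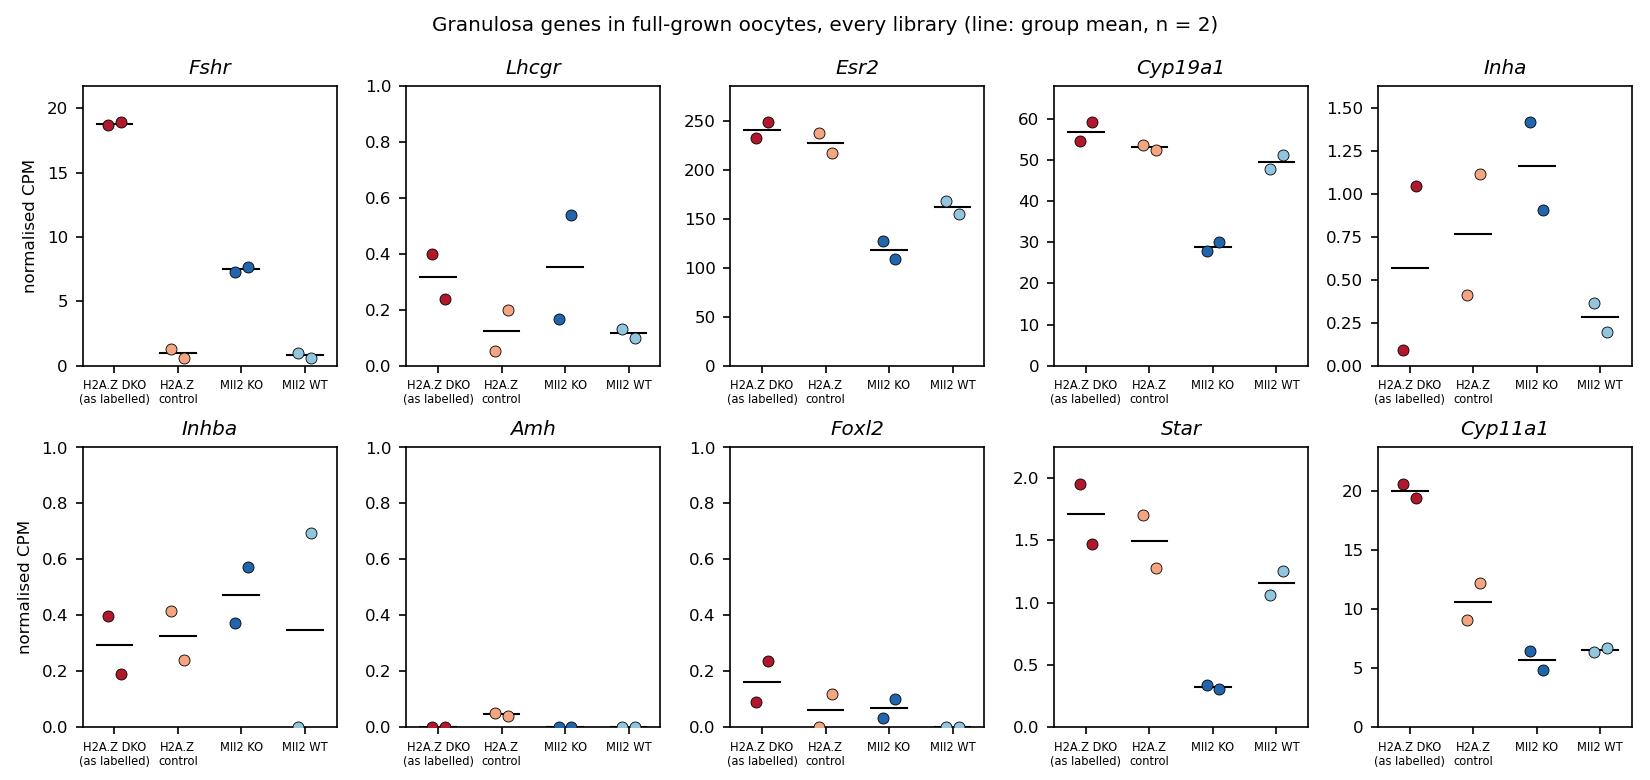
Normalised CPM (vertical axes, a separate scale for each gene) of the 10 genes in every library, with libraries labelled H2A.Z DKO, H2A.Z control, Mll2 KO and Mll2 WT from left to right; points are libraries and lines are means of 2. Fshr is at 18.7 and 18.9 CPM in the libraries labelled H2A.Z DKO and at 1.29 CPM or less in the controls, while Cyp19a1 and Star are lowest in Mll2 KO and Amh has reads only in H2A.Z control.

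Set per kilobase of exon, so that genes can be compared, Fshr moved between the low and the abundant members. Its mean level was 7.97 CPM per kb in the libraries labelled H2A.Z DKO, 0.400 in H2A.Z control, 3.17 in Mll2 KO and 0.336 in Mll2 WT. Esr2 was at 71.5, 67.4, 35.2 and 48.0 CPM per kb in those 4 groups and was the highest of the 10 genes in each. Cyp19a1 followed with 12.6, 11.7, 6.40 and 10.95 CPM per kb. Fshr came next in the libraries labelled H2A.Z DKO and in Mll2 KO, above Cyp11a1, which had 4.17 CPM per kb in the libraries labelled H2A.Z DKO and 1.18 in Mll2 KO. In both control groups Fshr stood below Cyp11a1, at 2.22 and 1.36 CPM per kb. In those groups its libraries overlapped those of Star per kb. Lhcgr, Foxl2, Inhba and Amh stayed at or below 0.108 CPM per kb in every library.

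**Figure D2:**
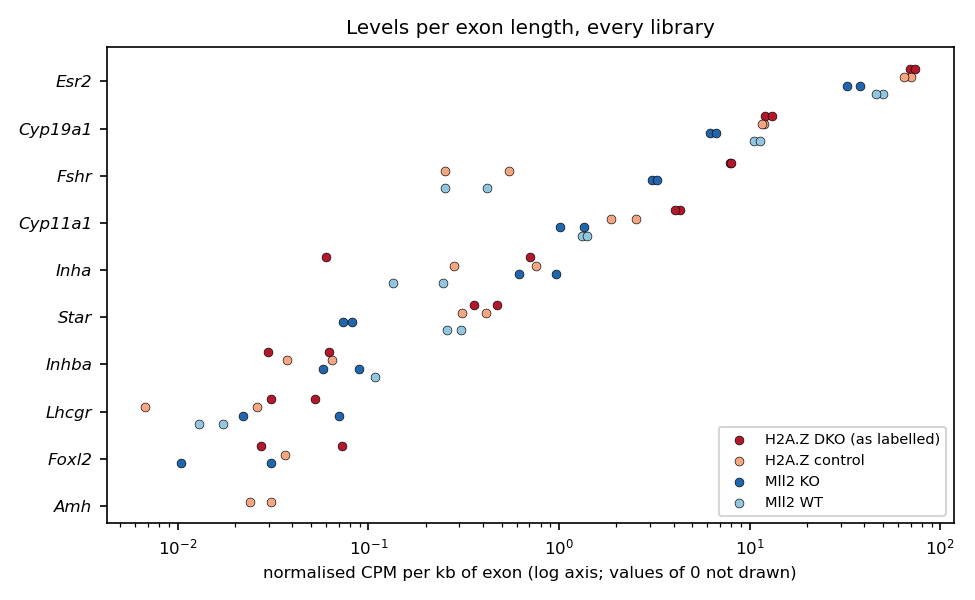
Normalised CPM per kb of exon (horizontal log axis, values of 0 not drawn) of the 10 genes, 1 point a library, coloured by group. Esr2 and Cyp19a1 lie at the high end in all groups, and Fshr lies near 7.97 CPM per kb in the libraries labelled H2A.Z DKO and near 0.336 CPM per kb in Mll2 WT.

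Counting the 9 genes other than Fshr by whether the libraries of mutant and control overlap, 3 stood higher in both libraries labelled H2A.Z DKO than in both H2A.Z controls (Lhcgr, Cyp19a1 and Cyp11a1), where 43.4% of all genes tested did, and 1 stood lower (Amh), where 26.9% did (70.3% in all). In Mll2 KO 3 stood higher than in both Mll2 WT libraries (Lhcgr, Inha and Foxl2), against 32.2% of all genes tested, and 3 stood lower (Esr2, Cyp19a1 and Star), against 32% (64.2% in all). These shares cover genes that passed the filter on low counts, which Lhcgr, Amh and Foxl2 did not. Of the 6 genes other than Fshr that could be tested, 1 rose and 0 fell in the libraries labelled H2A.Z DKO (edgeR adjusted p under 0.05), in a comparison that called 19.4% of all genes higher and 11.5% lower. In Mll2 KO 0 of the 6 rose and 3 fell, against 14.4% of all genes called higher and 16.2% called lower. DESeq2 gave the same counts, and by the unadjusted edgeR values Inha alone would be added, as higher in Mll2 KO. Without H2A.Z control replicate 1 the gene called in the H2A.Z line was lost, so that the count there was 0.

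**Figure D3:**
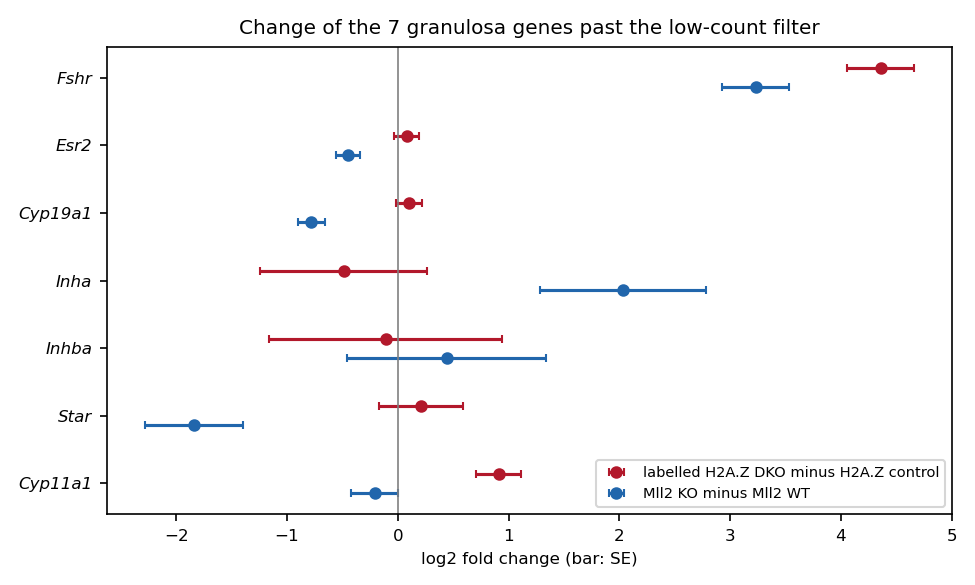
Log2 fold change (horizontal axis, points) with its SE (bars) of the 7 granulosa genes that passed the filter on low counts, in the libraries labelled H2A.Z DKO over H2A.Z control (red) and in Mll2 KO over Mll2 WT (blue). Fshr, chosen for its rise, is at 4.36 and 3.23, while Esr2, Cyp19a1 and Star lie near 0 in the H2A.Z line and below 0 in Mll2 KO.

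Lhcgr, the receptor for luteinizing hormone that granulosa cells gain late in follicle growth, was near the limit of detection. It had 9 and 5 counts in the libraries labelled H2A.Z DKO against 1 and 5 in H2A.Z control, and 5 and 16 counts in Mll2 KO against 4 and 3 in Mll2 WT. Summed over libraries, the ratio of CPM was 2.38 in the H2A.Z line (95% counting interval 0.858 to 7.55) and 3.06 in the Mll2 line (1.25 to 8.52), with intervals that cover counting error only. The first interval includes 1 and the second does not, and neither allows for the spread between pools.

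Among the other receptors and hormones of this family (14 genes, 7 tested beside Fshr), 2 passed the test in the libraries labelled H2A.Z DKO, as higher, and 2 rose and 1 fell in Mll2 KO. Of every gene tested, 19.4% rose and 11.5% fell in the H2A.Z line, and 14.4% rose and 16.2% fell in Mll2 KO. DESeq2 called the fall but neither rise in Mll2 KO. Lgr4, a receptor of R-spondins, had 7.76 and 7.64 CPM in the libraries labelled H2A.Z DKO and 1.76 and 3.03 CPM in H2A.Z control (log2 1.66 ± 0.28, edgeR adjusted p = 0.0004). Its libraries in Mll2 KO, 4.21 and 5.95 CPM against 3.04 and 3.30 CPM in Mll2 WT, did not pass the test (adjusted p = 0.0618). Gpha2, a subunit of thyrostimulin, rose in the libraries labelled H2A.Z DKO (2.40 and 3.04 CPM against 0.827 and 0.917 CPM, log2 1.63 ± 0.40, adjusted p = 0.00665) and in Mll2 KO (2.23 and 1.11 CPM against 0.694 and 0.758 CPM, log2 1.19 ± 0.40, adjusted p = 0.0338). The call in Mll2 KO was lost in 6 of 14 alternatives, among them DESeq2, that line by itself and the omission of DKO replicate 2, Mll2 KO replicate 1 or either Mll2 WT library (up to 0.311), and that in the H2A.Z line without DKO replicate 2 or H2A.Z control replicate 1 (up to 0.0588). Fshb, the beta subunit of FSH itself, fell in Mll2 KO to 0.169 and 0.336 CPM, against 1.29 and 1.06 CPM in Mll2 WT (log2 -2.19 ± 0.44, adjusted p = 0.00156), and held 1.77 and 1.99 CPM in the libraries labelled H2A.Z DKO against 2.95 and 3.27 CPM in H2A.Z control (adjusted p = 0.119). Cga, the shared alpha subunit, was the remaining gene that rose in Mll2 KO, just past the threshold (adjusted p = 0.0498). The H2A.Z line count of 2 was 1 without DKO replicate 2 or H2A.Z control replicate 1, and the Mll2 line count of 3 was 1 without DKO replicate 2, Mll2 WT replicate 1 or Mll2 WT replicate 2.

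Neither oestrogen receptor gene passed the test as higher in either line. Esr2, which encodes oestrogen receptor beta, had 233 and 248 CPM in the libraries labelled H2A.Z DKO and 237 and 217 CPM in H2A.Z control, and 128 and 109 CPM in Mll2 KO against 168 and 155 CPM in Mll2 WT. The H2A.Z libraries overlapped and the Mll2 libraries did not. Its log2 change was 0.08 ± 0.11 in the H2A.Z line (95% interval -0.14 to 0.31, edgeR adjusted p = 0.592) and it fell by 0.45 ± 0.11 in Mll2 KO (adjusted p = 0.0058), though not without Mll2 WT replicate 1 (adjusted p = 0.0671). Esr1, the other oestrogen receptor, passed the test in neither line, with 41.4 and 35.9 CPM against 41.7 and 37.3 CPM in the H2A.Z line and 39.5 and 47.4 CPM against 52.0 and 45.3 CPM in the Mll2 line.

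Cyp19a1 had 54.5 and 59.1 CPM in the libraries labelled H2A.Z DKO and 53.7 and 52.5 CPM in H2A.Z control. In the Mll2 line it had 27.9 and 29.98 CPM in Mll2 KO and 47.8 and 51.2 CPM in Mll2 WT. Mll2 KO was thus the group with the lowest aromatase level, clear of the other 3. The log2 change was 0.10 ± 0.12 in the H2A.Z line (95% interval -0.15 to 0.35, adjusted p = 0.567), while Cyp19a1 fell by 0.78 ± 0.12 in Mll2 KO (edgeR adjusted p = 0.000171, and past the threshold in 14 of 14 alternatives).

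The first steps of steroid synthesis behaved unlike each other. Star, which carries cholesterol into mitochondria, had 1.95 and 1.47 CPM in the libraries labelled H2A.Z DKO and 1.71 and 1.28 CPM in H2A.Z control, against only 0.337 and 0.302 CPM in Mll2 KO beside 1.06 and 1.25 CPM in Mll2 WT. It fell by 1.84 ± 0.44 in Mll2 KO (edgeR adjusted p = 0.00549, past the threshold in 14 of 14 alternatives) and did not pass the test in the H2A.Z line (0.21 ± 0.38, 95% interval -0.60 to 1.02). Cyp11a1, the side-chain cleavage enzyme that makes pregnenolone, rose in the libraries labelled H2A.Z DKO, with 20.6 and 19.4 CPM against 9.05 and 12.2 CPM in H2A.Z control. That change was 0.91 ± 0.20 on the log2 scale (adjusted p = 0.00284), lost without H2A.Z control replicate 1 (adjusted p = 0.0603). Cyp11a1 in Mll2 KO, at 6.47 and 4.87 CPM, did not pass the test against Mll2 WT at 6.38 and 6.73 CPM (-0.21 ± 0.21, adjusted p = 0.474). Cyp11a1 shares exon bases with the predicted gene Gm17322, and the library kit is not strand-specific, so reads of the 2 genes cannot be told apart there.

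Of 14 steroidogenesis genes tested, 1 rose and 3 fell in the libraries labelled H2A.Z DKO (median log2 0.11, against 0.12 over all genes) and 2 rose and 4 fell in Mll2 KO (median 0.10, against 0.02). Of all genes, 19.4% rose and 11.5% fell in the H2A.Z line and 14.4% and 16.2% in the Mll2 line. Without DKO replicate 1 only Cyp11a1 passed in the H2A.Z line. Cyb5a, a haem protein that assists the steroid lyase reaction among others, fell in Mll2 KO to 198 and 201 CPM, against 453 and 487 CPM in Mll2 WT (log2 -1.24 ± 0.10, edgeR adjusted p = 1.82e-07). It also fell in the libraries labelled H2A.Z DKO, which held 471 and 485 CPM against 647 and 633 CPM (log2 -0.42 ± 0.10, adjusted p = 0.00404, lost without DKO replicate 1 at 0.0663). Tspo fell in the libraries labelled H2A.Z DKO, on 1 and 8 counts against 30 and 38 (log2 -2.85 ± 0.67, adjusted p = 0.0046). It also fell in Mll2 KO, on 5 and 13 counts against 31 and 28 (log2 -1.67 ± 0.61, adjusted p = 0.047), a call kept in 5 of 14 alternatives. Fdx1, the ferredoxin that hands electrons to Cyp11a1, rose in Mll2 KO to 63.4 and 60.6 CPM, against 38.2 and 37.6 CPM in Mll2 WT (log2 0.71 ± 0.11, adjusted p = 0.000248), and did not pass the test in the H2A.Z line (adjusted p = 0.449). Hsd17b7, which acts in oestradiol and cholesterol synthesis, rose in Mll2 KO (53.3 and 61.2 CPM against 40.2 and 39.4 CPM, log2 0.52 ± 0.13, adjusted p = 0.00743, lost without Mll2 WT replicate 2 at 0.0862). It fell in the libraries labelled H2A.Z DKO (23.5 and 22.6 CPM against 28.3 and 34.4 CPM, log2 -0.45 ± 0.14, adjusted p = 0.0219, lost without either DKO library or H2A.Z control replicate 2, up to 0.26).

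The change of 4 members differed between the 2 lines, as labelled, in the interaction contrast, in which 19.5% of all genes were called, 12.9% as higher in the H2A.Z line and 6.68% as lower. The difference, taken as the log2 change in the H2A.Z line as labelled minus that in Mll2 KO, was 0.87 ± 0.17 for Cyp19a1 (edgeR adjusted p = 0.00195). It was 1.11 ± 0.29 for Cyp11a1 (adjusted p = 0.0123), 2.05 ± 0.58 for Star (adjusted p = 0.022) and 0.53 ± 0.15 for Esr2 (adjusted p = 0.0229). Inha (-2.52 ± 1.06, adjusted p = 0.112) and Inhba (-0.54 ± 1.38, adjusted p = 0.825) did not pass it.

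Inhibin and activin subunits were sparse and uneven between pools. Inha, the alpha subunit that makes inhibin, had 2 and 22 counts in the libraries labelled H2A.Z DKO against 8 and 28 in H2A.Z control, and 42 and 27 counts in Mll2 KO against 11 and 6 in Mll2 WT. The H2A.Z libraries overlapped and the Mll2 libraries did not. The log2 change was -0.49 ± 0.75 in the H2A.Z line (95% interval -2.09 to 1.12) and 2.03 ± 0.75 in Mll2 KO, where the edgeR adjusted p of 0.0511 lay just outside the threshold and passed it under 7 of 14 alternatives. Inhba, the beta A subunit of activin A, had 9 and 4 counts against 8 and 6 in the H2A.Z line and 11 and 17 counts in Mll2 KO against 0 and 21 in Mll2 WT. Neither change passed the test (-0.11 ± 1.05 and 0.44 ± 0.90), except that without Mll2 WT replicate 2, which leaves a lone Mll2 WT library at 0 counts, Inhba rose in Mll2 KO (adjusted p = 0.03). Amh, the anti-Müllerian hormone, had 0 counts in all libraries but those of H2A.Z control, which held 1 count each. A sum of 0 counts allows up to 0.0688 CPM in the libraries labelled H2A.Z DKO, 0.0505 CPM in Mll2 KO and 0.0495 CPM in Mll2 WT.

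The wider list of inhibin, activin and AMH signalling (20 of 25 tested) had 3 genes that rose and 2 that fell in the libraries labelled H2A.Z DKO, a split that turned to 1 and 2 with scaling by library total alone. In Mll2 KO it had 3 that rose and 2 that fell. Over all genes 30.9% were called in the H2A.Z line and 30.6% in the Mll2 line, above the share of the list in each. The median was -0.01 in the H2A.Z line and 0.26 in the Mll2 line, against 0.12 and 0.02 over all genes. Smad3, which carries activin signals to the nucleus, rose in the libraries labelled H2A.Z DKO (70.1 and 69.0 CPM against 43.7 and 46.9 CPM, log2 0.62 ± 0.12, edgeR adjusted p = 0.00147). It also rose in Mll2 KO (116 and 148 CPM against 104 and 101 CPM, log2 0.36 ± 0.12, edgeR adjusted p = 0.0315). That call was lost with the Mll2 line fitted by itself and without any 1 library other than Mll2 KO replicate 1. Tgfbr3, a co-receptor through which inhibin acts, rose in Mll2 KO (38.5 and 50.1 CPM against 27.7 and 25.6 CPM, log2 0.73 ± 0.15, adjusted p = 0.00178). The H2A.Z line count of 5 was 1 without DKO replicate 1 or H2A.Z control replicate 2, and 3 without DKO replicate 2, H2A.Z control replicate 1 or Mll2 WT replicate 2. The Mll2 line count of 5 was 2 without either Mll2 WT replicate and 3 without either H2A.Z control or Mll2 KO replicate 2.

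Foxl2, the transcription factor that maintains granulosa identity, had 2 and 5 counts in the libraries labelled H2A.Z DKO against 0 and 3 in H2A.Z control, and 1 and 3 counts in Mll2 KO against 0 and 0 in Mll2 WT. The ratio in the H2A.Z line was 2.38 with a 95% counting interval of 0.543 to 14.2, which includes 1. In Mll2 KO, with 4 counts against 0, the lower end of that interval was 0.673, so it includes 1 as well. Foxl2 shares exon bases with Foxl2os, so even these reads may belong to either gene.

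Of 11 gonadal transcription factors and steroid receptors tested, 5 passed the test in the libraries labelled H2A.Z DKO, as higher (median log2 0.39, against 0.12 over all genes), and 4 rose and 1 fell in Mll2 KO (median 0.39, against 0.02). The comparisons called 19.4% of all genes higher in the H2A.Z line, and 14.4% higher and 16.2% lower in the Mll2 line. The Mll2 line count of 5 was 3 without Mll2 KO replicate 2 or Mll2 WT replicate 2, and 2 without Mll2 WT replicate 1. Gata4, a factor of gonadal somatic cells, had 6.56 and 7.55 CPM in the libraries labelled H2A.Z DKO and 1.91 and 2.95 CPM in H2A.Z control (log2 1.52 ± 0.27, edgeR adjusted p = 0.000661). Emx2, a homeobox gene needed for the urogenital ridge, had 9.67 and 10.1 CPM against 2.48 and 1.71 CPM there (log2 2.25 ± 0.30, adjusted p = 5.41e-05). In Mll2 KO neither passed the test, with Gata4 at 12.3 and 13.6 CPM against 13.0 and 8.34 CPM in Mll2 WT and Emx2 at 2.80 and 4.30 CPM against 3.07 and 4.81 CPM. Nr2f2 rose in Mll2 KO, to 2.39 and 2.89 CPM against 1.29 and 0.890 CPM (log2 1.27 ± 0.42, edgeR adjusted p = 0.0295). It did not pass the test in the H2A.Z line (adjusted p = 0.143).

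Usf1 and Usf2 encode the upstream stimulatory factors that bind the E-box of rat Fshr. Usf2 rose in both lines, to 15.8 and 16.7 CPM in the libraries labelled H2A.Z DKO against 8.01 and 8.21 CPM in H2A.Z control (log2 1.00 ± 0.22, edgeR adjusted p = 0.00264), and to 34.3 and 59.6 CPM in Mll2 KO against 24.3 and 24.5 CPM in Mll2 WT (log2 0.94 ± 0.20, adjusted p = 0.00202). Usf1 passed the test in neither line (edgeR adjusted p = 0.505 in the H2A.Z line and 0.0732 in the Mll2 line). Between the controls, Usf2 was lower in H2A.Z control than in Mll2 WT (log2 -1.59 ± 0.21, edgeR adjusted p = 2.24e-05). The part of Usf1 and Usf2 in the Fshr result was not tested. Nr5a2, which is needed for ovulation and drives steroidogenic genes, rose in Mll2 KO (58.2 and 56.5 CPM against 34.5 and 33.9 CPM, log2 0.75 ± 0.12, adjusted p = 0.00023) and in the libraries labelled H2A.Z DKO (40.01 and 38.02 CPM against 29.1 and 30.4 CPM, log2 0.39 ± 0.12, adjusted p = 0.0228), where the call was lost in 6 of 14 alternatives, among them the omission of any 1 H2A.Z line library or of Mll2 WT replicate 2 (up to 0.169). Foxo1, a factor that FSH signalling restrains in granulosa cells, rose in the libraries labelled H2A.Z DKO (203 and 199 CPM against 111 and 120 CPM, log2 0.79 ± 0.17, edgeR adjusted p = 0.00424). It also rose in Mll2 KO (341 and 560 CPM against 303 and 310 CPM, log2 0.56 ± 0.17, edgeR adjusted p = 0.0261). The call in Mll2 KO was lost with that line fitted by itself and without Mll2 KO replicate 2 or either Mll2 WT library.

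Somatic RNA was looked for through the other granulosa genes. Of 22 granulosa markers, 13 beside Fshr could be tested. In the libraries labelled H2A.Z DKO 2 rose (Cyp11a1 and Nr5a2) and 2 fell (Gja1 and Fst), with a median log2 of 0.02 against 0.12 over all genes. In Mll2 KO 3 rose (Nr5a2, Gja1 and Inhbb) and 5 fell (Esr2, Cyp19a1, Star, Kitl and Serpine2), with a median of 0.44 against 0.02. Among all genes 30.9% were called in the H2A.Z line and 30.6% in the Mll2 line. The H2A.Z line count of 4 was 1 without DKO replicate 1, DKO replicate 2 or H2A.Z control replicate 2, and 2 without H2A.Z control replicate 1, while the Mll2 line count of 8 was 4 without Mll2 WT replicate 1. Kitl, the granulosa ligand of the oocyte receptor Kit, fell in Mll2 KO to 4.21 and 4.03 CPM, against 7.44 and 7.19 CPM in Mll2 WT (log2 -0.83 ± 0.20, edgeR adjusted p = 0.00496), and Serpine2 to 330 and 409 CPM, against 636 and 500 CPM (log2 -0.62 ± 0.13, adjusted p = 0.00224, lost without Mll2 WT replicate 1 at 0.0506). Summed over all 22 genes, the list stood at 720 and 691 CPM in the libraries labelled H2A.Z DKO, 652 and 643 CPM in H2A.Z control, 569 and 627 CPM in Mll2 KO and 904 and 757 CPM in Mll2 WT. Most of that sum is Esr2 and Serpine2.

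A group of 15 of these markers stayed under 3 CPM in every library: Lhcgr, Inha, Inhba, Amh, Foxl2, Star, Inhbb, Hsd17b1, Amhr2, Fst, Nppc, Npr2, Wt1, Gja1 and Ihh. This limit was set after the values were seen. Their summed level was 3.59 and 4.08 CPM in the libraries labelled H2A.Z DKO against 3.31 and 6.54 CPM in H2A.Z control, and 6.37 and 5.38 CPM in Mll2 KO against 2.45 and 2.87 CPM in Mll2 WT. The highest sum was thus in H2A.Z control replicate 2, where Fshr was at 0.598 CPM, and the libraries labelled H2A.Z DKO, with the most Fshr, overlapped their controls. In the Mll2 line the sum and Fshr were both higher in the mutant, and the part of these transcripts in the Fshr result was not tested. Star gave 1.95 and 1.47 CPM of the sum in the libraries labelled H2A.Z DKO and 1.71 and 1.28 CPM in H2A.Z control. It gave 1.06 and 1.25 CPM in Mll2 WT but only 0.337 and 0.302 CPM in Mll2 KO. Without Star, which fell in Mll2 KO, the sums of Mll2 KO and Mll2 WT would lie further apart. Between 2 and 6 of the 15 were at 0 counts in a library.

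Set against Inha in the same library, Fshr had 211 and 18.1 counts per Inha count in the libraries labelled H2A.Z DKO against 3.12 and 0.536 in H2A.Z control, and 5.12 and 8.48 in Mll2 KO against 2.73 and 3 in Mll2 WT. The numerator is the count that chose the gene and some denominators are as low as 1 or 2 counts, so these ratios are a description. Gja1, the gap junction protein connexin 43 of granulosa cells, gave 422 and 99.5 Fshr counts per Gja1 count in the libraries labelled H2A.Z DKO against 8.33 and 0.319 in H2A.Z control, and 7.17 and 7.39 in Mll2 KO against 5 and 4.5 in Mll2 WT. H2A.Z control replicate 2 was the low end of both, with 47 counts of Gja1 and 28 of Inha beside 15 of Fshr. Gja1 itself had 1 and 4 counts in the libraries labelled H2A.Z DKO against 3 and 47 in H2A.Z control, a fall (edgeR adjusted p = 0.0218) that was lost without H2A.Z control replicate 2 (0.86), DKO replicate 1 or DKO replicate 2. In Mll2 KO, Gja1 had 30 and 31 counts against 6 and 4 in Mll2 WT, a rise (log2 2.60 ± 0.84, adjusted p = 0.0286) that was lost without any 1 of the 4 Mll2 line libraries (adjusted p up to 0.17). Inhbb, the beta B subunit, rose on 13 and 14 counts in Mll2 KO against 2 and 3 in Mll2 WT (adjusted p = 0.0475), a call lost in 10 of 13 alternatives, among them the omission of any 1 library.

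**Figure D4:**
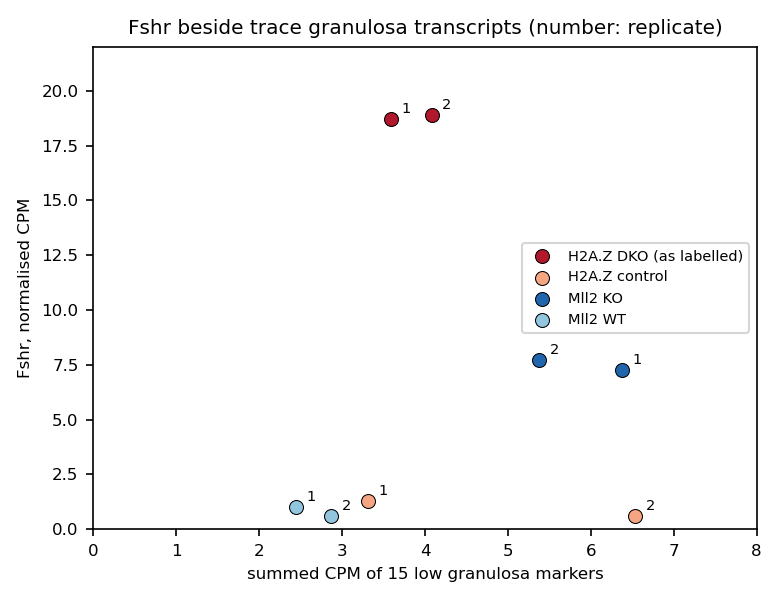
Fshr (vertical axis, normalised CPM) against the summed level of 15 granulosa markers that stayed under 3 CPM in every library (horizontal axis, CPM), 1 numbered point a library, coloured by group. H2A.Z control replicate 2 has the highest sum, 6.54 CPM, at 0.598 CPM of Fshr, and the libraries labelled H2A.Z DKO have 18.7 and 18.9 CPM of Fshr at sums of 3.59 and 4.08 CPM.

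Markers of other somatic cells were counted in the same way. Among 12 theca and stroma markers, Col3a1 and Tagln had 0 counts in all libraries, Cyp17a1 had at most 2 counts, and the sum ran from 3.797 to 4.97 CPM in the libraries labelled H2A.Z DKO, 4.34 to 4.38 CPM in H2A.Z control, 2.97 to 6.02 CPM in Mll2 KO and 2.58 to 3.496 CPM in Mll2 WT. Of these, 3 could be tested, and Dcn (decorin, of the stromal matrix) rose in Mll2 KO, where 14.4% of all genes were called higher. Dcn had 2.19 and 3.70 CPM there against 1.16 and 1.71 CPM in Mll2 WT (log2 1.03 ± 0.35, edgeR adjusted p = 0.0372). That call was lost with the Mll2 line fitted by itself and without H2A.Z control replicate 1, Mll2 KO replicate 2 or either Mll2 WT library. Of the 12 blood, immune and endothelial markers, Hba-a1, Hbb-bs and Cdh5 had 0 counts in all libraries and Ptprc at most 4. That list summed to 37.8 and 44.0 CPM in the libraries labelled H2A.Z DKO against 30.4 and 30.8 CPM in H2A.Z control, and to 44.3 and 55.3 CPM in Mll2 KO against 47.4 and 49.98 CPM in Mll2 WT, most of it Pecam1 and Tek. Of the 4 genes that could be tested, Pecam1, which had 356 to 1214 counts a library, rose in the libraries labelled H2A.Z DKO (29.4 and 27.4 CPM against 18.4 and 20.1 CPM, log2 0.56 ± 0.14, edgeR adjusted p = 0.00787, lost without DKO replicate 1, H2A.Z control replicate 1 or Mll2 WT replicate 2, up to 0.0836). In Mll2 KO, Kdr (a receptor for vascular endothelial growth factor) rose, with 1.01 and 2.45 CPM against 0.628 and 0.660 CPM in Mll2 WT (log2 1.42 ± 0.48, adjusted p = 0.0329), and Cd68 (a macrophage marker) fell, with 1.65 and 1.08 CPM against 2.84 and 2.67 CPM (log2 -1.01 ± 0.32, adjusted p = 0.0245). Over all genes tested, 30.9% were called in the H2A.Z line and 30.6% in the Mll2 line. The calls of Kdr and Cd68 were lost with the Mll2 line fitted by itself and without Mll2 KO replicate 2 or either Mll2 WT library, and that of Kdr also with DESeq2. Their part in the Fshr result was not tested.

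Cumulus cells, the granulosa cells closest to the oocyte, were looked at through 12 genes of expansion and ovulation, of which 3 could be tested. The sum was 6.74 and 6.27 CPM in the libraries labelled H2A.Z DKO against 2.95 and 2.99 CPM in H2A.Z control, and 4.35 and 5.98 CPM in Mll2 KO against 2.68 and 3.40 CPM in Mll2 WT. Ptgs2, the cyclooxygenase of ovulation, made up much of the difference, with 83 and 78 counts (3.68 and 3.70 CPM) in the libraries labelled H2A.Z DKO against 5 and 4 counts (0.259 and 0.159 CPM) in H2A.Z control, and 36 and 73 counts (1.21 and 2.45 CPM) in Mll2 KO against 17 and 7 counts (0.562 and 0.231 CPM) in Mll2 WT. No control library reached a mutant library of its line. Of all genes tested, 43.4% stood higher in this way in the H2A.Z line and 32.2% in the Mll2 line, and 19.4% and 14.4% were called higher. Ptgs2 rose in both lines, by log2 4.15 ± 0.54 in the H2A.Z line (edgeR adjusted p = 4.66e-05) and 2.20 ± 0.47 in Mll2 KO (adjusted p = 0.0025), past the threshold in 14 of 14 alternatives in each. Has2, which makes the hyaluronan of the cumulus matrix, had 24 and 9 counts in the libraries labelled H2A.Z DKO against 1 and 7 in H2A.Z control (adjusted p = 0.0416, lost in 7 of 13 alternatives, among them the omission of DKO replicate 1, H2A.Z control replicate 1, Mll2 WT replicate 1 or Mll2 WT replicate 2), and in Mll2 KO it did not pass the test (25 and 26 counts against 10 and 11). Ptx3, Adamts1 and Tnfaip6, genes of the expanding cumulus, had 0 counts in both libraries labelled H2A.Z DKO and 5, 11 and 7 counts in H2A.Z control replicate 2, and Ereg had 0 counts in every library. Their part in the Fshr result was not tested.

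Genes that act downstream of the receptor, or set cyclic AMP in the oocyte, were mostly detected. Of 38 genes of cyclic AMP signalling, 36 were in the table and 33 were tested. In the libraries labelled H2A.Z DKO 7 rose and 1 fell (median log2 0.23, against 0.12 over all genes). In Mll2 KO 8 rose and 4 fell (median 0.15, against 0.02). For comparison, 30.9% of all genes were called in the H2A.Z line and 30.6% in the Mll2 line. The H2A.Z line count of 8 was 2 without DKO replicate 1 or either H2A.Z control, 4 without DKO replicate 2 or Mll2 WT replicate 2 and 5 without Mll2 WT replicate 1, and it was 5 when libraries were scaled by total alone. The Mll2 line count of 12 was 3 without either Mll2 WT replicate and 6, evenly split, when that line was fitted by itself.

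Rapgef3, an exchange factor that cyclic AMP activates directly, rose in the libraries labelled H2A.Z DKO to 82.3 and 81.6 CPM, against 37.7 and 43.4 CPM in H2A.Z control (log2 1.01 ± 0.12, edgeR adjusted p = 2.3e-05). It also rose in Mll2 KO (49.3 and 52.9 CPM against 40.6 and 36.4 CPM, log2 0.41 ± 0.12, edgeR adjusted p = 0.0179). That call was lost with the Mll2 line fitted by itself and without Mll2 KO replicate 2 or Mll2 WT replicate 2. Gnai1, an inhibitory G protein subunit, rose in the libraries labelled H2A.Z DKO to 34.3 and 28.3 CPM, against 17.1 and 19.9 CPM in H2A.Z control (log2 0.76 ± 0.16, edgeR adjusted p = 0.00184). It fell in Mll2 KO to 15.6 and 18.4 CPM, against 37.6 and 34.7 CPM in Mll2 WT (log2 -1.09 ± 0.15, edgeR adjusted p = 8.05e-05). The changes of Gnai1 were thus opposite in sign as labelled, with a difference of 1.84 ± 0.22 (adjusted p = 3.45e-05). Were the H2A.Z labels turned round, Gnai1 would be lower in both mutants, while Fshr would be lower in the H2A.Z mutant and higher in Mll2 KO. Gnas, the stimulatory subunit to which the FSH receptor couples, passed the test in neither line, with 135 and 137 CPM in the libraries labelled H2A.Z DKO against 151 and 138 CPM and 201 and 197 CPM in Mll2 KO against 171 and 188 CPM. Gpr3, which keeps the oocyte arrested, also passed in neither, with 10.5 and 10.3 CPM against 8.27 and 9.40 CPM in the H2A.Z line and 20.8 and 20.8 CPM against 20.8 and 22.4 CPM in the Mll2 line.

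The genes beside Fshr were looked at too, but few of them had reads. Fshr lies at chr17:88984952-89200675 on the minus strand of mm10 and no other gene of the RefSeq table overlaps it. Of the 12 nearest genes, 6 on each side, 3 pseudogenes have no row in the table, and 4 (Gm31903, 4933400B14Rik, Gm4719 and Gm32337) had 0 counts in every library. Gm41653 had 1 count in 2 libraries. Lhcgr, 192.9 kb downstream, is described above. Gtf2a1l, a germ cell relative of TFIIA 269.8 kb downstream, had 57.0 and 58.4 CPM in the libraries labelled H2A.Z DKO against 68.2 and 76.9 CPM in H2A.Z control (log2 -0.33 ± 0.13, edgeR adjusted p = 0.0715), and 67.6 and 50.7 CPM in Mll2 KO against 63.6 and 62.9 CPM in Mll2 WT (-0.10 ± 0.13, adjusted p = 0.614). In the H2A.Z line Gtf2a1l passed the test as lower in 8 of 14 alternatives, among them DESeq2 and that line by itself (adjusted p from 9.97e-05 to 0.375 over all 14), and in the Mll2 line in 1 (without Mll2 KO replicate 1, 0.0307). The long non-coding RNA Gm38460, 322.7 kb away, had 86.9 and 88.2 CPM against 76.3 and 79.9 CPM in the H2A.Z line (0.16 ± 0.11, edgeR adjusted p = 0.259). It fell in Mll2 KO to 83.6 and 75.7 CPM, against 101 and 108 CPM (-0.39 ± 0.11, edgeR adjusted p = 0.0116). That call was lost with library totals alone, with the Mll2 line fitted by itself and without Mll2 WT replicate 2. Of the neighbours, only Gtf2a1l and Gm38460 could be tested, and neither passed the test as higher in either line. The nearer of them lies 269.8 kb away, so they cannot show whether the close surroundings of Fshr moved.

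The pattern of Fshr over the 8 libraries was set beside those of the other members. Pearson correlations of log2 CPM with Fshr were 0.433 for Cyp11a1, 0.152 for Inhba, 0.086 for Inha, 0.028 for Esr2, -0.173 for Star and -0.204 for Cyp19a1. These are descriptions over 8 libraries that fall into 4 groups, and Fshr itself sets the contrast of mutants with controls. Among 13495 genes with a mean of at least 1 CPM, the 10 with the highest r to Fshr were Antxr1 (0.983), Kcna1 (0.980), Siva1 (0.979), Btg1 (0.971), Rpl41 (0.970), Vapa (0.968), Ptgs2 (0.968), Rfxap (0.966), Dlgap1 (0.966) and Krt73 (0.966). Except for Ptgs2, none was on the granulosa or cumulus lists.

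Their changes were mostly smaller than that of Fshr. Antxr1, an anthrax toxin receptor that binds collagen, had 12.8 and 11.2 CPM in the libraries labelled H2A.Z DKO against 4.71 and 4.38 CPM in H2A.Z control, and 7.82 and 8.37 CPM in Mll2 KO against 5.29 and 4.22 CPM in Mll2 WT. Like Fshr it was highest in the libraries labelled H2A.Z DKO, intermediate in Mll2 KO and lowest in the controls. Krt73, a keratin, had 48.0 and 37.5 CPM against 9.36 and 10.6 CPM in the H2A.Z line and 33.0 and 37.6 CPM against 12.2 and 9.73 CPM in the Mll2 line. Siva1, a gene linked to apoptosis, moved least, with log2 changes of 0.32 in the H2A.Z line and 0.31 in the Mll2 line. Over the 10, log2 changes ran from 0.32 to 4.15 in the H2A.Z line and from 0.31 to 2.20 in the Mll2 line, the top of both being Ptgs2. These genes were picked by their likeness to Fshr, so their changes carry no test here, apart from that of Ptgs2 above, which is on the cumulus list and whose likeness is no further support.

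**Figure D5:**
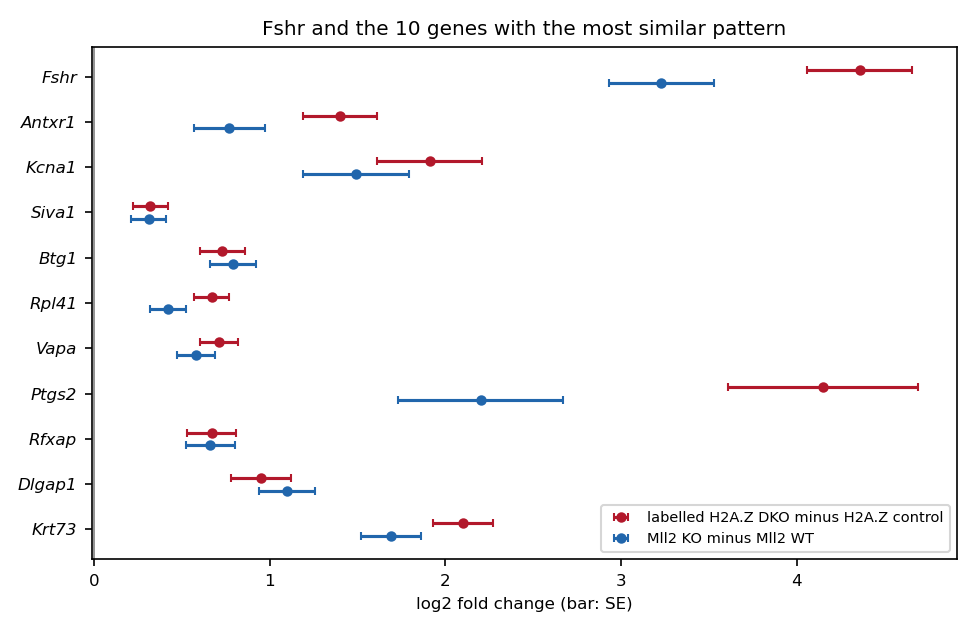
Log2 fold change (horizontal axis, points) with its SE (bars) of Fshr and of the 10 genes whose log2 CPM correlated most with it over 8 libraries, in the libraries labelled H2A.Z DKO over H2A.Z control (red) and in Mll2 KO over Mll2 WT (blue). All lie above 0 by their choice, and Ptgs2 at 4.15 and 2.20 comes closest to Fshr in size.

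The controls of the lines differed for 2 of the 6 tested members other than Fshr. Esr2 was higher in H2A.Z control than in Mll2 WT by 0.49 ± 0.11 on the log2 scale (edgeR adjusted p = 0.00159). Cyp11a1 was higher by 0.70 ± 0.20 (adjusted p = 0.0103), and no longer passed once H2A.Z control replicate 2 (adjusted p = 0.187), Mll2 WT replicate 1 or Mll2 WT replicate 2 was left out. The other 4 did not pass, and 2 of 6 called higher stands beside 19% of all genes called higher and 44.3% called in all. By their libraries, 6 of the 9 (Esr2, Cyp19a1, Inha, Star and Cyp11a1, and Amh on 1 count a library) stood higher in both H2A.Z controls than in both Mll2 WT libraries, as 37.2% of all genes tested did, with 75.2% of genes not overlapping in either direction. Line, batch and genetic background cannot be told apart in this contrast, and each mutant was therefore read against the control of its own line. The contrast also takes the H2A.Z labels as given.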

How the data were processed

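The authors deposited whole-number counts per gene symbol, without normalisation, for 8 libraries made with the SMART-Seq v4 and Nextera XT kits per the labels' protocols. Trim Galore 0.6.4, STAR 2.7.3, RSEM 1.3.1 and genome build mm10 are listed in the submitters' processing notes, and the annotation is not given in the sources used here. From these counts, edgeR 4.0.16 (R 4.3.3) fitted 4 group means over all 8 libraries (filterByExpr, TMM, robust quasi-likelihood test, 4 residual degrees of freedom), with Benjamini-Hochberg adjustment over 16847 genes and a threshold of 0.05. SEs were derived from the F statistic, and the fit was tested on simulated data. Alternatives were RLE factors, library totals alone, DESeq2 1.42.0, no filter, each line alone, a replicate block and leaving out each library.

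The members, gene lists and promoter motifs were chosen with earlier results of these data known. Named genes were the 10 members, the targeted genes, the 10 genes most correlated with Fshr (log2 CPM, prior count 2), the 6 nearest genes on each side and called or role-defining list members. Lists are described by counts and medians, with no list test. Totals of 20309233 to 30087863 counts limit genes under about 10 counts, and counting intervals (exact, 95%) and floors of 3 counts cover counting error only. Replicates of a group correlated at 0.984 to 0.989 and differed by more than counting noise, so none was merged. Their chi-square per degree of freedom was 6.26 in the libraries labelled H2A.Z DKO, 4.64 in H2A.Z control, 38.4 in Mll2 KO and 12.5 in Mll2 WT. The joint fit gave each gene a single dispersion over these unequal groups, and called 5198 genes in the H2A.Z line and 5158 in the Mll2 line. With each line fitted by itself, 6777 of 15721 genes were called in the H2A.Z line and 3466 of 16127 in the Mll2 line. Replicate numbers were not treated as pairs: nothing in the labels ties a number to a litter or day, and deviations of same-numbered libraries correlated at 0.04 in the H2A.Z line and -0.022 in the Mll2 line. One of the nearest genes is not reported here. Gene positions and promoter sequences are from RefSeq on GRCm38, and exon lengths and shared exon bases are from the GENCODE annotation of that build.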

Additional observations from a re-analysis of the deposited data

Results flagged for a closer look

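The results below differed between the mutants by the interaction test, given as the log2 change in the libraries labelled H2A.Z DKO minus that in Mll2 KO, with its SE and the edgeR adjusted p. This contrast called 19.5% of all 16847 genes, so a call in it is not unusual. It also rests on the H2A.Z labels. Were those turned round, the differences would change in size, and for some genes but not all in sign. Among the granulosa members the difference was 0.87 ± 0.17 for Cyp19a1 (adjusted p = 0.00195), 1.11 ± 0.29 for Cyp11a1 (0.0123), 2.05 ± 0.58 for Star (0.022) and 0.53 ± 0.15 for Esr2 (0.0229). Cyp19a1 passed in 13 of 13 alternatives. Cyp11a1 was lost with library totals alone and without DKO replicate 1, H2A.Z control replicate 1 or Mll2 WT replicate 2 (adjusted p up to 0.0862), and Star with DESeq2 and without DKO replicate 1, H2A.Z control replicate 2 or Mll2 WT replicate 2 (up to 0.108). Esr2 was lost with library totals alone and without either DKO library, H2A.Z control replicate 2 or either Mll2 WT library (up to 0.191).

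Other granulosa markers were Kitl at 0.98 ± 0.27 (adjusted p = 0.0195) and Serpine2 at 0.64 ± 0.18 (0.0234), both lost without DKO replicate 1, either H2A.Z control library or Mll2 WT replicate 1, Kitl also without Mll2 WT replicate 2 and Serpine2 also without Mll2 KO replicate 1 (adjusted p up to 0.103 and 0.176). Gja1 differed by -5.74 ± 1.28 (adjusted p = 0.00558), lost without H2A.Z control replicate 2 (0.228), which held 47 of the 50 counts of its group. Fst differed by -4.91 ± 1.26 (adjusted p = 0.0124) on 1 and 1 counts in the libraries labelled H2A.Z DKO against 6 and 16 in H2A.Z control, and 15 and 10 counts in Mll2 KO against 2 and 6 in Mll2 WT. It was lost without either DKO library, H2A.Z control replicate 2 or Mll2 WT replicate 1 (up to 0.113).

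Of the cyclic AMP and transcription factor genes, Gnai1 differed by 1.84 ± 0.22 (adjusted p = 3.45e-05) and Emx2 by 2.40 ± 0.41 (0.000783), each in 13 of 13 alternatives. Gata4 differed by 1.24 ± 0.35 (adjusted p = 0.0213), lost without DKO replicate 2, H2A.Z control replicate 1 or Mll2 WT replicate 1 (up to 0.124), and Rapgef3 by 0.60 ± 0.17 (0.0208), lost without either DKO library, H2A.Z control replicate 1 or either Mll2 WT library (up to 0.201). In steroid synthesis Cyb5a differed by 0.82 ± 0.14 (adjusted p = 0.0007) and Hsd17b7 by -0.97 ± 0.19 (0.00235), in 13 of 13 alternatives each. Fdx1 differed by -0.59 ± 0.16 (adjusted p = 0.0173), lost without any H2A.Z line library or Mll2 WT replicate 1 (up to 0.0962). Among inhibin and bone morphogenetic protein receptors Tgfbr3 differed by -0.91 ± 0.22 (adjusted p = 0.00797), lost without DKO replicate 2 (0.051), and Bmpr1b by 0.51 ± 0.15 (0.0235), lost without either DKO library, H2A.Z control replicate 2, Mll2 KO replicate 1 or either Mll2 WT library (up to 0.224). Gm38460, the non-coding neighbour of Fshr, differed by 0.55 ± 0.15 (adjusted p = 0.0168), lost without any H2A.Z line library or Mll2 WT replicate 2 (up to 0.187). Scaling by library totals alone also ended the calls of Kitl, Serpine2, Gata4, Rapgef3, Bmpr1b and Gm38460. Further list genes that passed this test, whose alternatives are not given, were Prkar2b (0.76 ± 0.21, adjusted p = 0.0166), Pde8a (0.77 ± 0.21, 0.0169) and Bmpr2 (0.67 ± 0.20, 0.0286). So did Tshb (1.89 ± 0.59, 0.0341), Nr2f2 (-2.62 ± 0.79, 0.0285), Ooep (0.63 ± 0.16, 0.013) and Kit (0.62 ± 0.17, 0.0159). The causes were not tested.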

How the results depend on the processing

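The log2 change of Fshr in the H2A.Z line as labelled ran from 3.86 (without H2A.Z control replicate 2) to 4.97 (without H2A.Z control replicate 1) when libraries were left out, and from 4.23 to 4.36 under the other alternatives. In the Mll2 line it ran from 2.89 to 3.64. The count of members called was 1 in the H2A.Z line, 0 to 1 with a library left out. In Mll2 KO it was 3, 2 to 4 with a library left out. In the difference between the mutants it was 4, 1 to 4 with a library left out and 2 with library totals alone. Between the controls it was 2, 1 to 2 with a library left out. Of 374 recomputed log2 values of members, 340 were scored as unchanged. For a tested value this meant the same side of the threshold, and the same direction if it was called. Values that were not called may therefore have changed sign. For Fshr in the mutant comparisons and their difference, which carry no test, it meant the same direction and a shift below 0.47, its pooled SD within groups. Inhba between the controls, -0.11 with all libraries, ran from -1.11 to 6.07 with a library left out, reaching 6.07 without Mll2 WT replicate 2, since the lone Mll2 WT library left holds 0 counts. Gja1 between the controls, 2.64 with all libraries, ran from -0.09 (without H2A.Z control replicate 2) to 3.46 (without H2A.Z control replicate 1). With a replicate block, members called numbered 1 in the H2A.Z line and 4 in the Mll2 line, where Inha joined as higher, 4 in the difference and 2 between the controls, and Fshr changed by 4.36 and 3.24. Among the lists, the block ended the call of Has2 and that of Inhbb. Scaling by library totals alone moved the median of all genes from 0.124 to 0.002 in the H2A.Z line and from 0.017 to 0.139 in the Mll2 line, and the share of calls that were higher from 62.9% to 45.5% and from 47.1% to 62.9%. In the difference between the mutants that share was 65.8% with TMM and 37% with totals alone. Among other named genes that did not pass with all libraries, Fshb, Gnas and Gtf2a1l passed as lower in the H2A.Z line in 3, 3 and 8 of 14 alternatives, and Lgr4, Usf1 and Hsd17b1 passed as higher in Mll2 KO in 2, 2 and 4 of 14. Without a library, its partner is assumed to vary like the other groups. Few counts limit Lhcgr, Amh, Foxl2, Inha and Inhba. Elsewhere the cause was not tested.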
